A study of Homo sapiens with 9 samples.

Results

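The genes described here are 9 sensors of foreign or misplaced nucleic acid and transducers of the interferon response. They are DDX58, IFIH1, DHX58, TLR3, MB21D1, TMEM173, STAT2, IRF9 and IRF7. They were taken by name from the symbols of the count table, 9 of 58051 genes, and all 9 were among the 14513 genes with enough counts to be tested. RNA was sequenced from A431, a human epidermoid carcinoma cell line that carries endogenous mutant p53, in 3 groups of 3 poly(A) libraries. A431 parental (mutp53) cells were not engineered. A431 Ctrl (mutp53) cells are a stable line made with an empty CRISPR vector, and A431 p53 KO cells are a stable line made with a CRISPR construct against p53. All 3 groups share the A431 background and standard medium, and the labels name no treatment with a nucleic acid or interferon. Per the labels, cells were raised as single colonies before plating. The number of colonies behind each group is not given, so a difference between lines and an effect of p53 loss cannot be told apart. Nothing states that replicates came from separate cultures, and p-values measure only the spread between these libraries.

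Cells detect viral or misplaced nucleic acid with dedicated receptors. RIG-I (DDX58) and MDA5 (IFIH1) are cytosolic helicases that bind RNA and signal through the mitochondrial adaptor MAVS, LGP2 (DHX58) is a relative of both without the signalling domains, and TLR3 reads double-stranded RNA in endosomes. cGAS (MB21D1) binds cytosolic DNA and makes a cyclic dinucleotide that activates STING (TMEM173). Both arms lead to interferon, which acts through the complex ISGF3, with STAT2 and IRF9 among its subunits, to switch on interferon-stimulated genes, several of the sensors and IRF7 among them.

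ISGF3 binds an interferon-stimulated response element (ISRE), so the letters upstream of the sensors are shown first. The windows below are RefSeq promoters of GRCh38.p14 and run from 250 bases before to 50 bases after each gene's start, 5′ to 3′ on the gene's strand. Capitals mark the ISRE core, which is GAAA, any 2 bases and GAAA again, read on both strands. The table used held such a window for 5 of the 9 genes, namely DDX58, IFIH1, TLR3, STAT2 and IRF9, and DHX58, MB21D1, TMEM173 and IRF7 had no entry. IFIH1 is shown because it held 3 cores, and TLR3 because its core spans the start that RefSeq gives. DDX58 is shown because it held none, although its RNA differed most between p53 KO and Ctrl cells among the 9 genes.
IFIH1, chr2:162318635-162318934, minus strand: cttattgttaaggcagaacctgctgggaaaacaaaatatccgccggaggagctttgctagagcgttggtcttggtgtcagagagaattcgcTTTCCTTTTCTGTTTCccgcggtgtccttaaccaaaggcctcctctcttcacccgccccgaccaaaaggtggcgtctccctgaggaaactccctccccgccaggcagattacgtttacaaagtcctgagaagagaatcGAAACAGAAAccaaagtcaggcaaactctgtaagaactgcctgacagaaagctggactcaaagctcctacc
TLR3, chr4:186068906-186069205, plus strand: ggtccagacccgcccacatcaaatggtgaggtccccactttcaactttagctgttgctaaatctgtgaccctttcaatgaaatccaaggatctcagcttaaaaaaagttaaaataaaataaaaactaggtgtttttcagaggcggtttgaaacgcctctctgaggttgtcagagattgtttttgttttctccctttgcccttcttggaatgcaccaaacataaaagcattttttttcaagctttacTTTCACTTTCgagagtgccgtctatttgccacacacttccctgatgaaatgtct
DDX58, chr9:32526147-32526446, minus strand: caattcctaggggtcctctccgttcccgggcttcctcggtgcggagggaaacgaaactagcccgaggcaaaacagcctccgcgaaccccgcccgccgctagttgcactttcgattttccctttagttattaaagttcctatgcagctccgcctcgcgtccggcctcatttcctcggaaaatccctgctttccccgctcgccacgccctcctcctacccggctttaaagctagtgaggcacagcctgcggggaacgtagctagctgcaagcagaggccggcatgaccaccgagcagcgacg
In IFIH1 the cores began 159, 153 and 21 bases before the start, and the first 2 overlap each other on the opposite strand. The TLR3 core began 4 bases before the start. STAT2 and IRF9 held no core, as DDX58 did not. Of all 35116 promoters in the table, 3.57% held the core, against 22 of the 33 windows found for interferon-stimulated effector genes, or 66.7%. The core of the gamma-activated site, which is TTC, any 3 bases and GAA, occurred in TLR3 and IRF9 and in 7.66% of all promoters. A match is a string of letters and no measured site, and a window without one says nothing about the factor.

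The deposited values were whole numbers of reads per gene, with 19783778 to 29840452 counts per library. Levels are given as CPM, counts scaled by each library's total and its TMM factor, which evens out composition between libraries. Ctrl replicate 1 stood apart. Its counts differed from those of the other Ctrl libraries by a chi-square of 39.6 and 52.0 per gene, against 5.36 to 16.5 in the other pairs of replicates, and values without it are given where they matter. Of the keratinocyte markers checked, all 8 exceeded 3 counts in some library, though KRT14 did not pass 13 counts. PTPRC, CD3E, MS4A1 and CLEC4C, which define leukocytes, were at 0 in all 9 libraries. The summed level of the 8 leukocyte markers was 0.646 to 0.918 CPM in parental, 0.306 to 0.610 in Ctrl and 1.18 to 1.91 in p53 KO libraries, and the part of this difference in the results below was not tested.

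The RNA sensors of the RIG-I family were higher in p53 KO cells than in both control groups, STING was slightly higher, and the transducers STAT2, IRF9 and IRF7 did not pass the test in any comparison. IRF9 had only 5 to 17 and IRF7 17 to 37 reads per library, so for these genes not passing does not show an unchanged level. Passing means an adjusted p of at most 0.05 in edgeR's quasi-likelihood test over the 14513 genes, in 1 model of all 9 libraries with Benjamini-Hochberg adjustment. Against parental cells 4 of the 9 genes passed as higher (DDX58, IFIH1, DHX58 and TMEM173) and 0 as lower, where 9.77% of all genes tested passed as higher and 8.36% as lower. Against Ctrl cells 5 passed as higher, MB21D1 in addition, and 0 as lower, where 15% of all genes passed as higher and 14.2% as lower. Between the controls, DDX58 alone passed, as lower in Ctrl than in parental cells, where 9.69% of all genes passed as lower and 10.6% as higher. In no comparison did a member pass with a log2 fold change beyond 1.5, as 1.95%, 3.29% and 1.94% of all genes did in the order given. The median log2 fold change of the 9 genes was 0.51 against parental and 0.44 against Ctrl cells, against 0.01 for all genes in both, and it was 0.03 between the controls, against 0.00. The 3 comparisons share libraries, so their values stand side by side and are not independent. In bulk RNA, fewer cells with a transcript and less of it per cell cannot be told apart.

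**Figure D1:**
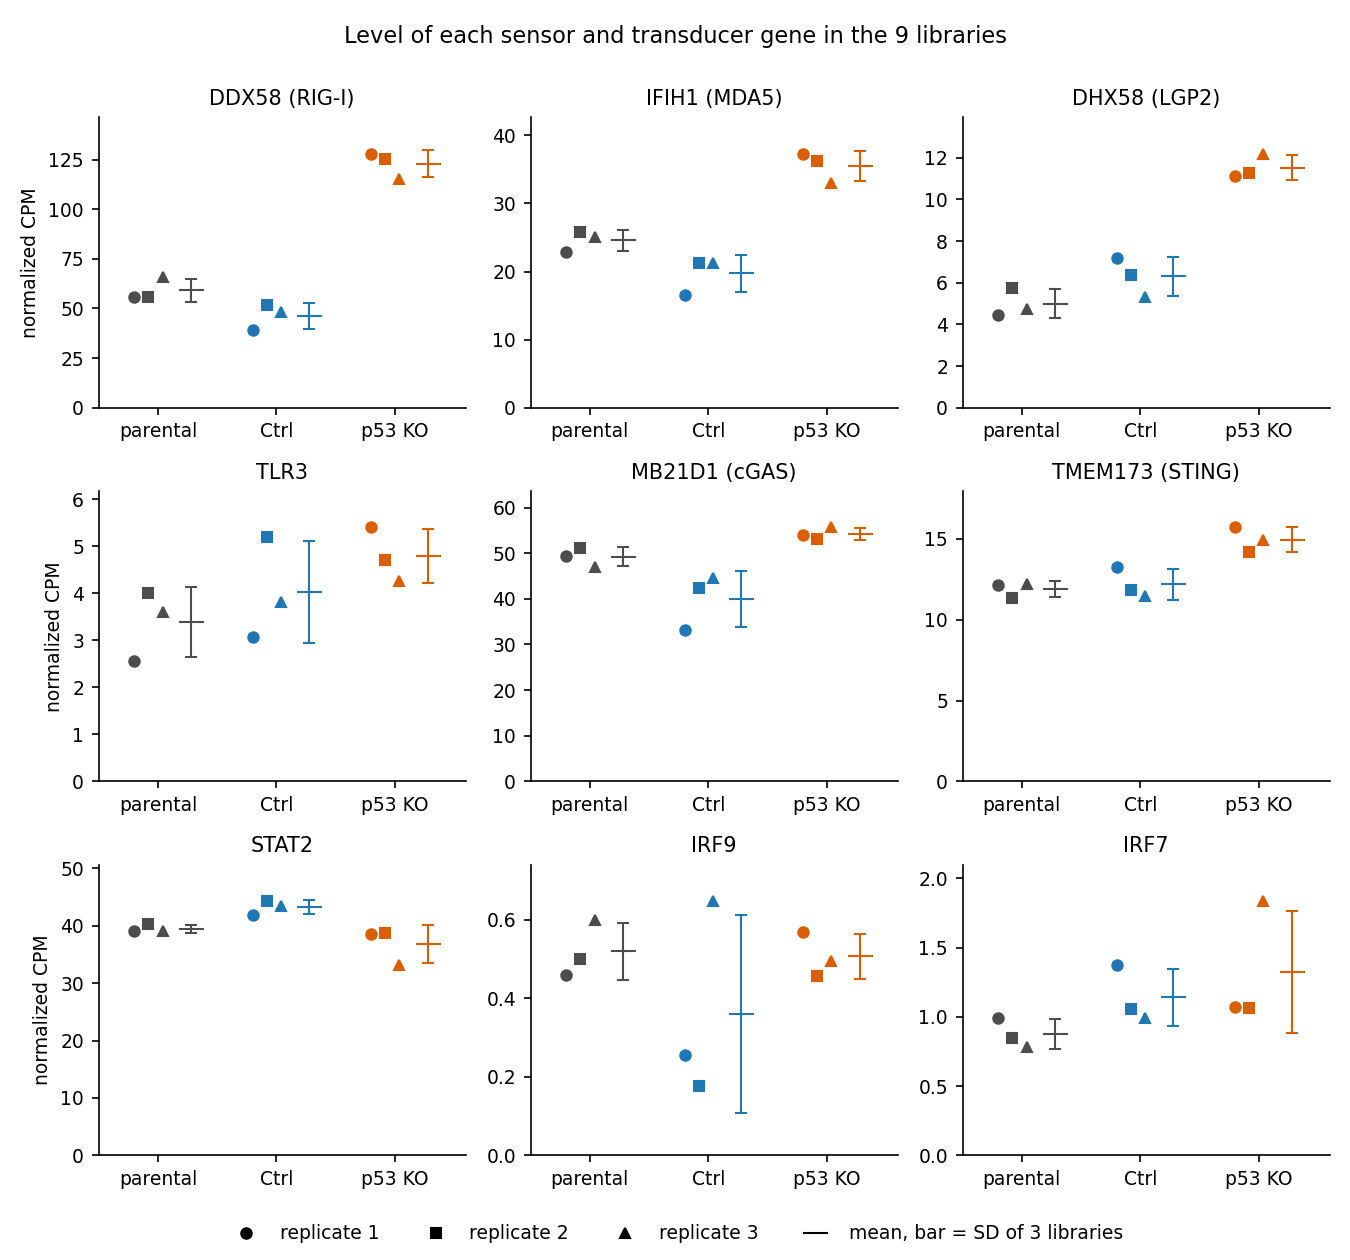
Level of each of the 9 genes in every library, in normalized CPM on an axis from 0, with replicates 1 to 3 as separate symbols and the mean ± SD of the 3 libraries beside them. DDX58 lay at 115 to 128 CPM in p53 KO cells and at 39.0 to 65.9 CPM in the controls, IFIH1 and DHX58 also separated p53 KO from all 6 control libraries, and IRF9 stayed below 1 CPM throughout.

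DDX58 (ENSG00000107201, now RIGI) encodes RIG-I, which recognises RNA with a triphosphate end. It lies on the minus strand of chromosome 9 from 32455302 to 32526208 of GRCh38. The parental libraries 1 to 3 held 56.0, 55.6 and 65.9 CPM, the Ctrl libraries 39.0, 51.6 and 48.1 CPM, and the p53 KO libraries 128, 125 and 115 CPM. All p53 KO libraries were far above all control libraries, and all Ctrl libraries lay below all parental ones. DDX58 rose by a log2 fold change of 1.06 ± 0.11 (SE, adjusted p = 0.000124) against parental cells, a 2.08-fold difference, and of 1.41 ± 0.11 (SE, adjusted p = 6.65e-06) against Ctrl cells, a 2.66-fold difference. Both passed under all 17 ways of fitting that were tried, and without Ctrl replicate 1 the value against Ctrl was 1.30. The lower level in Ctrl than in parental cells, -0.35 ± 0.11 (SE, adjusted p = 0.0443), passed in 8 of 17. It no longer passed without Ctrl replicate 1 (-0.25, adjusted p = 0.0529), without parental replicate 1 (0.0862), 2 (0.0751) or 3 (0.16), or without p53 KO replicate 1 (0.0629), 2 (0.0676) or 3 (0.0528), each an adjusted p. With all libraries kept in both groups, it also did not pass with the replicate number as a block (-0.36, adjusted p = 0.0828) or with only the 2 groups compared (-0.35, adjusted p = 0.0866).

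IFIH1 (ENSG00000115267) encodes MDA5, which forms filaments on long double-stranded RNA. It lies on the minus strand of chromosome 2 from 162267074 to 162318684. Its level was 22.8, 25.7 and 25.1 CPM in the parental, 16.6, 21.3 and 21.2 CPM in the Ctrl and 37.3, 36.2 and 33.0 CPM in the p53 KO libraries. The order of the groups was that of DDX58, without overlap, but the distances were smaller. IFIH1 rose by 0.53 ± 0.11 (SE, adjusted p = 0.00537) against parental and by 0.85 ± 0.11 (SE, adjusted p = 0.000166) against Ctrl cells on the log2 scale, or 1.45-fold and 1.80-fold, in 17 of 17 fits. Without Ctrl replicate 1 the value against Ctrl was 0.74. Ctrl cells were at -0.31 (95% interval -0.55 to -0.08, adjusted p = 0.062) against parental, which passed with DESeq2 (adjusted p = 0.0408), without a filter on low counts (0.0442) and without Ctrl replicate 3 (0.0426).

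The balance of the 2 sensors differed between the groups as well. Per kilobase of exon, DDX58 exceeded IFIH1 by a ratio of 1.09 to 1.32 in the parental, 1.14 to 1.22 in the Ctrl and 1.73 to 1.76 in the p53 KO libraries. A ratio of this kind scales with the lengths used, by the same factor in every library. Per kilobase of the main transcript, the means of DDX58 and IFIH1 were 12.8 and 6.86 in parental, 9.99 and 5.51 in Ctrl and 26.6 and 9.92 in p53 KO cells. The ratio was chosen after the values were seen and is given without a test.

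DHX58 (ENSG00000108771) encodes LGP2, which modulates signalling by the other 2 helicases. It lies on the minus strand of chromosome 17 from 42101404 to 42112714 and was less abundant than either. Its level was 4.44, 5.77 and 4.75 CPM in the parental, 7.19, 6.39 and 5.34 CPM in the Ctrl and 11.1, 11.3 and 12.2 CPM in the p53 KO libraries. The p53 KO libraries again stood above all 6 controls, while Ctrl and parental libraries overlapped, with Ctrl higher on average. DHX58 rose 2.31-fold against parental cells, a log2 fold change of 1.20 ± 0.13 (SE, adjusted p = 0.000186), and 1.83-fold against Ctrl cells, 0.88 ± 0.13 (SE, adjusted p = 0.000495), in 17 of 17 fits. Its value between the controls was 0.33 (95% interval 0.02 to 0.64, adjusted p = 0.113) and passed only without Ctrl replicate 3 (0.44, adjusted p = 0.0372).

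TLR3 (ENSG00000164342), on the plus strand of chromosome 4 from 186068911 to 186088073, was detected at a low level, with 60 to 161 reads per library. Its level was 2.56, 4.001 and 3.60 CPM in the parental, 3.06, 5.20 and 3.81 CPM in the Ctrl and 5.40, 4.72 and 4.27 CPM in the p53 KO libraries. The p53 KO libraries lay just above the parental ones, and the Ctrl libraries spanned most of both ranges. The log2 fold change was 0.51 (95% interval 0.05 to 0.98, adjusted p = 0.122) against parental and 0.24 (95% interval -0.21 to 0.70, adjusted p = 0.421) against Ctrl cells. The first of these passed in 3 of 17 fits, namely without Ctrl replicate 1 (adjusted p = 0.0393), with only the 2 groups compared (0.0293) and without a filter on low counts (0.0223).

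Of the DNA arm, MB21D1 (ENSG00000164430, now CGAS) encodes cGAS and lies on the minus strand of chromosome 6 from 73413515 to 73452297. Its level was 49.5, 51.2 and 47.1 CPM in the parental, 33.1, 42.3 and 44.6 CPM in the Ctrl and 54.1, 53.1 and 55.7 CPM in the p53 KO libraries. The p53 KO libraries were only a little above the parental ones, and the Ctrl libraries were the low group. MB21D1 rose 1.35-fold against Ctrl cells, a log2 fold change of 0.44 ± 0.10 (SE, adjusted p = 0.0085), in 17 of 17 fits, and by 0.31 without Ctrl replicate 1, its lowest library. Against parental cells the value was 0.14 (95% interval -0.09 to 0.37, adjusted p = 0.384). Ctrl against parental was -0.30 (adjusted p = 0.065), which passed with DESeq2 (adjusted p = 0.0436), without a filter on low counts (0.0398) and without Ctrl replicate 3 (-0.38, adjusted p = 0.0244). The gene DDX43 on the opposite strand shares 4.31% of its exon bases.

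TMEM173 (ENSG00000184584, now STING1) encodes STING, the adaptor that answers the product of cGAS. It lies on the minus strand of chromosome 5 from 139475533 to 139482935. Its level was 12.2, 11.3 and 12.2 CPM in the parental, 13.3, 11.8 and 11.4 CPM in the Ctrl and 15.7, 14.2 and 14.9 CPM in the p53 KO libraries. The p53 KO libraries were the highest and the controls overlapped each other. TMEM173 rose by 0.33 ± 0.09 (SE, adjusted p = 0.0294) against parental and by 0.30 ± 0.09 (SE, adjusted p = 0.0291) against Ctrl cells on the log2 scale, or 1.25-fold and 1.23-fold. These calls were close to the threshold and passed in 9 and 10 of 17 fits. The one against parental cells did not pass without parental replicate 1 (adjusted p = 0.0791), 2 (0.12) or 3 (0.0718), or without p53 KO replicate 1 (0.114), 2 (0.0513) or 3 (0.0713). The one against Ctrl cells did not pass without p53 KO replicate 1 (adjusted p = 0.117) or 3 (0.0594), or without Ctrl replicate 2 (0.0936) or 3 (0.0835). With the replicate number as a block, the adjusted p-values were 0.0621 against parental and 0.0557 against Ctrl cells.

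STAT2 (ENSG00000170581), the STAT that is particular to ISGF3, lies on the minus strand of chromosome 12 from 56341597 to 56360203. Its level was 39.1, 40.3 and 39.1 CPM in the parental, 41.9, 44.3 and 43.5 CPM in the Ctrl and 38.6, 38.8 and 33.1 CPM in the p53 KO libraries. The Ctrl libraries were highest and the p53 KO libraries lowest, without overlap, the reverse of the order of DDX58, IFIH1 and MB21D1. The log2 fold change of p53 KO cells was -0.10 (95% interval -0.28 to 0.08, adjusted p = 0.432) against parental and -0.23 (95% interval -0.41 to -0.05, adjusted p = 0.0525) against Ctrl cells. The second passed with DESeq2 (adjusted p = 0.0364), with upper-quartile normalization (0.0432) and without Ctrl replicate 1 (-0.26, adjusted p = 0.0208).

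IRF9 (ENSG00000213928), which gives ISGF3 its DNA contact, was close to the limit of what these libraries can measure. It lies on the plus strand of chromosome 14 from 24161234 to 24168043. It had 12, 13 and 13 reads in the parental, 5, 5 and 17 in the Ctrl and 17, 12 and 10 in the p53 KO libraries, or 0.176 to 0.648 CPM. The groups overlapped, and the 5 and 17 reads of the Ctrl group spanned the range of all 9 libraries. The log2 fold change was -0.01 (95% interval -0.88 to 0.85, adjusted p = 0.984) against parental and 0.49 (95% interval -0.44 to 1.41, adjusted p = 0.426) against Ctrl cells. Without Ctrl replicate 3, which had the 17 reads, it passed at 1.27 (adjusted p = 0.0283) against Ctrl cells, and Ctrl against parental passed at -1.28 (adjusted p = 0.0299). In GENCODE release 44, the gene ENSG00000259529, which starts upstream on the same strand, covers 93.05% of the bases of the main IRF9 transcript and 23.9% of all IRF9 exon bases. That gene had 5 to 14 reads per library. How reads on bases shared by 2 genes were counted is not given in the sources used here, so the IRF9 level is uncertain.

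IRF7 (ENSG00000185507), which amplifies interferon production once it is induced, lies on the minus strand of chromosome 11 from 612553 to 615983. It had 26, 22 and 17 reads in the parental, 27, 30 and 26 in the Ctrl and 32, 28 and 37 in the p53 KO libraries. In CPM these were 0.995, 0.846 and 0.784, then 1.38, 1.05 and 0.991, then 1.07, 1.06 and 1.84. The high p53 KO mean came from replicate 3, and the p53 KO and Ctrl libraries overlapped. The log2 fold change was 0.55 (95% interval -0.03 to 1.13, adjusted p = 0.181) against parental and 0.20 (95% interval -0.36 to 0.76, adjusted p = 0.608) against Ctrl cells. IRF7 did not pass in any of the 17 fits of any comparison.

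**Figure D2:**
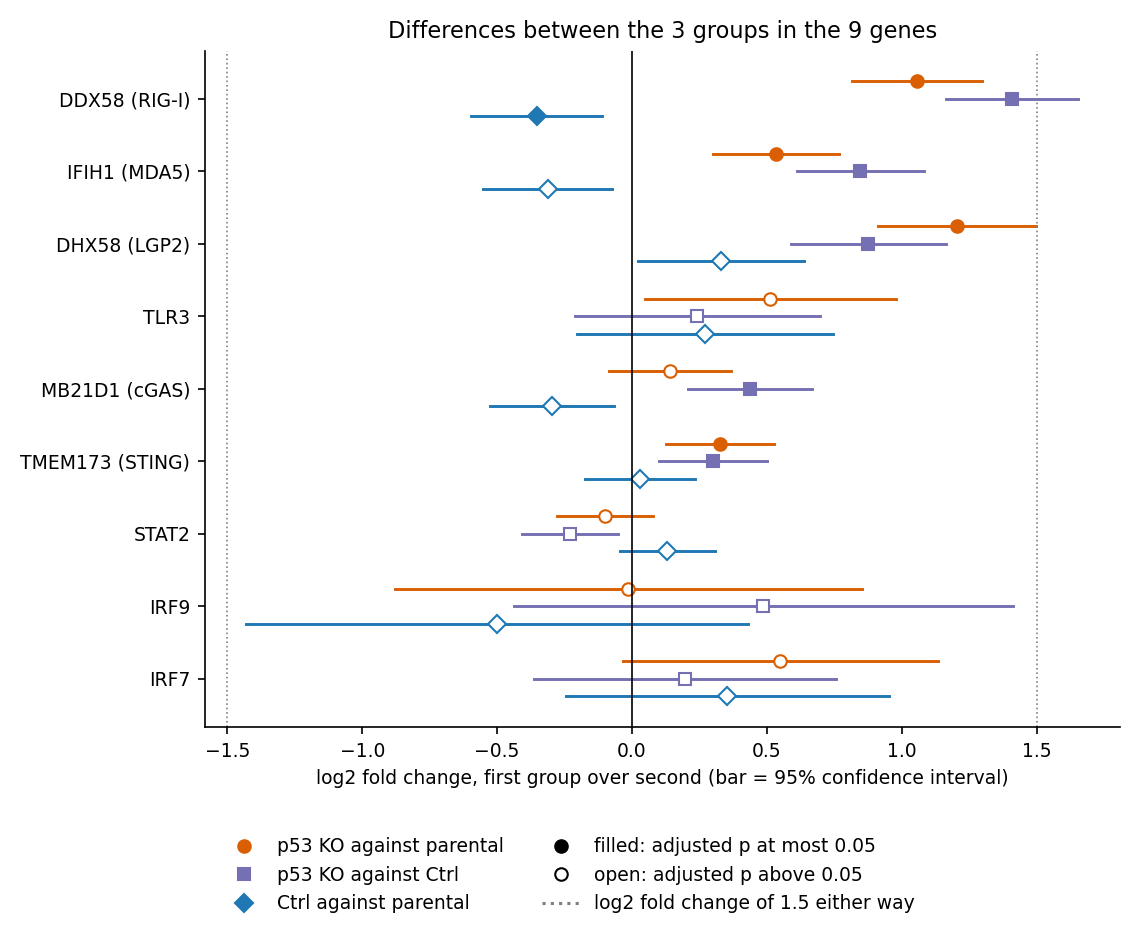
Log2 fold change of each of the 9 genes in the 3 comparisons, with 95% confidence intervals from edgeR's quasi-likelihood test, filled where the adjusted p-value was at most 0.05 and with dotted lines at 1.5 either way. DDX58 was at 1.06 and 1.41 in p53 KO cells against parental and Ctrl, STAT2 at -0.10 and -0.23, and the intervals of IRF9 and IRF7 were the widest.

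Read by library, 7 of the 9 genes lay higher in all p53 KO than in all parental libraries, 1 lay lower (STAT2) and 1 overlapped (IRF9), where 24.6% of all genes tested lay higher and 22.8% lower. Against Ctrl cells the counts were 5 higher, 1 lower and 3 overlapping, where 21.1% of all genes lay higher and 19.3% lower. Between the controls, 1 gene (STAT2) lay higher in all Ctrl libraries, 3 lay lower (DDX58, IFIH1 and MB21D1) and 5 overlapped, where 22.2% and 21.7% of all genes did the same.

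Levels of different genes were compared per kilobase of merged exon length. In parental cells MB21D1 was the most abundant of the 9 at 11.8 ± 0.494 CPM per kb (SD, n = 3), above 74.1% of the tested genes. It was followed by DDX58 at 5.72, IFIH1 at 4.70, STAT2 at 4.24, TMEM173 at 2.48 and DHX58 at 1.30, each separate from the next by library. TLR3 at 0.452 and IRF7 at 0.335 overlapped, and IRF9 was last at 0.0803. The IRF9 level and rank are uncertain, because most of its main transcript is shared with another counted gene. In Ctrl cells STAT2 at 4.64, DDX58 at 4.47 and IFIH1 at 3.77 formed a run of neighbours whose libraries overlapped, below MB21D1 at 9.59. In p53 KO cells DDX58 reached 11.9 ± 0.650 CPM per kb (SD, n = 3), close below MB21D1 at 13.004 ± 0.311 (SD, n = 3), and DHX58 at 3.02 overlapped with TMEM173 at 3.11. This order depends on the length used. Per kilobase of the main transcript instead of all exons, an option added after the data were seen, DDX58 led in p53 KO cells at 26.6, ahead of MB21D1 at 17.0, while MB21D1 still led in parental cells, at 15.4 against 12.8. On that length STAT2 at 8.96 also exceeded IFIH1 at 6.86 in parental cells, and in Ctrl cells DDX58 at 9.99 exceeded STAT2 at 9.82 and TMEM173 at 5.61 exceeded IFIH1 at 5.51.

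**Figure D3:**
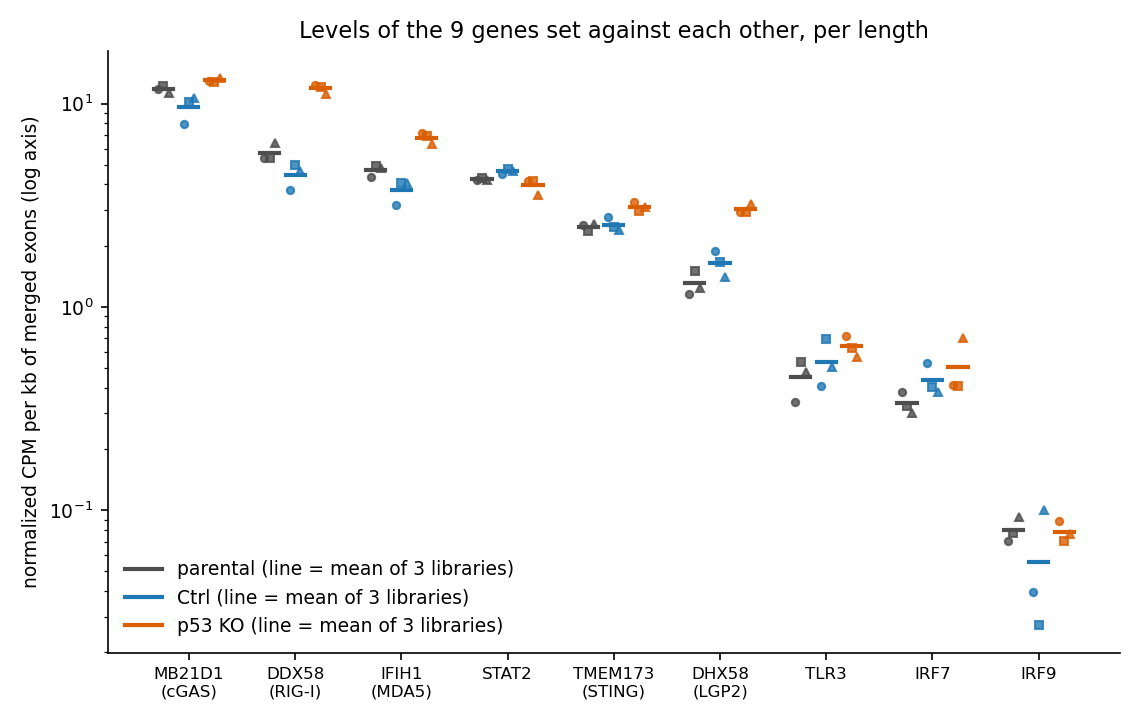
Levels of the 9 genes per kilobase of merged exons in the 3 groups, on a log axis, with a point for each library and a line at each group's mean. MB21D1 has the highest mean in all groups, DDX58 has means of 5.72 and 4.47 CPM per kb in parental and Ctrl cells and 11.9 in p53 KO cells, and IRF9 has the lowest means, at 0.0556 to 0.0803. The IRF9 level is uncertain because most of its main transcript is shared with another counted gene.

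Almost no interferon RNA was detected. Of 22 interferon ligand genes, 20 had no count in any library, IFNB1 among them, which allows a level of up to 0.101 CPM in the largest and 0.152 CPM in the smallest library (3 counts, counting error only). IFNL1 had at most 3 counts in any library. IFNE, an interferon of epithelia, had 3 to 5 counts in parental, 0 to 14 in Ctrl and 2 to 4 in p53 KO libraries, and no ligand had enough counts to be tested.

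The genes around the 9 are described list by list, from lists of 153 genes of which 118 were tested. Of all genes tested, 9.77% passed as higher and 8.36% as lower against parental cells, and 15% and 14.2% against Ctrl cells. Among RNA sensing adaptors and ubiquitin ligases, 5 of 20 genes tested passed as higher and 0 as lower against each control. DDX60, a helicase linked to RIG-I signalling, had the largest change at 1.26 ± 0.18 (SE, adjusted p = 0.000701) against parental and 1.28 ± 0.18 (SE, adjusted p = 0.000317) against Ctrl cells. The adaptor MAVS was at -0.20 (adjusted p = 0.193) and -0.23 (adjusted p = 0.108), and the kinase TBK1 at -0.01 (adjusted p = 0.943) and 0.18 (adjusted p = 0.221). Among DNA sensing and nucleic acid clearance genes, 4 of 17 passed as higher and 1 as lower against parental cells, and 6 and 2 against Ctrl cells. The DNA sensors IFI16, at 0.70 and 0.75, and AIM2, at 0.79 and 0.75, passed against both and were picked out after their values were seen. The medians were 0.07 and 0.14 for the RNA genes and 0.11 and 0.13 for the DNA genes, against 0.01 for all genes.

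The type I interferon receptor chains and their kinases did not pass in either p53 KO comparison. Of 9 interferon receptors and Janus kinases, 1 passed as higher and 0 as lower against parental cells, and 3 and 1 against Ctrl cells, where 9.77% and 8.36%, and then 15% and 14.2%, of all genes did so. The receptor chain IFNAR1 was at 0.04 and -0.05, IFNAR2 at -0.01 and 0.09, JAK1 at -0.20 and 0.01 and TYK2 at 0.14 and 0.10, and none of these passed. Of 10 other STATs and IRFs tested, 1 passed as higher and 3 as lower against parental cells, and 0 and 3 against Ctrl cells. IRF5, a factor downstream of endosomal receptors, fell by 0.49 on the log2 scale (SE 0.13, adjusted p = 0.0225) against parental and by 1.02 (SE 0.13, adjusted p = 0.000148) against Ctrl cells. IRF3, the factor that TBK1 activates, was at 0.11 (adjusted p = 0.576) and -0.09 (adjusted p = 0.613). Medians of both lists lay between -0.08 and 0.09.

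Of 22 negative regulators tested, 4 passed as higher and 1 as lower against parental cells, and 6 and 4 against Ctrl cells, with medians of 0.10 and 0.00. More of them passed between the controls, 6 as higher and 8 as lower in Ctrl than in parental cells, with a median of -0.11. Of all genes tested, 9.77% passed as higher and 8.36% as lower against parental cells, and 15% and 14.2% against Ctrl cells. Between the controls the shares were 10.6% and 9.69%. NLRC5, a regulator of MHC class I genes, was at 0.52 (adjusted p = 0.00182) and 1.24 (adjusted p = 3.27e-06), and OTUD5, a deubiquitinase, at 0.37 (adjusted p = 0.00993) and 1.10 (adjusted p = 4.93e-06). Both were also lower in Ctrl than in parental cells, NLRC5 at -0.72 (adjusted p = 0.000354) and OTUD5 at -0.73 (adjusted p = 0.000196). TNFAIP3 (A20), an inhibitor of NF-kB, was at 0.15 (adjusted p = 0.585) against parental but at 1.73 (adjusted p = 7.93e-05) against Ctrl cells, and at -1.57 (adjusted p = 0.000362) between the controls. RNF125, a ubiquitin ligase for RIG-I, had 1 to 5 counts in parental, 0 in all Ctrl and 8 to 14 in p53 KO libraries.

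Most interferon-stimulated effectors were higher in p53 KO cells. Of 40 tested, 30 passed as higher and 1 as lower against parental cells and 27 and 3 against Ctrl cells, with median log2 fold changes of 0.76 and 0.70. Between the controls 5 passed as higher and 2 as lower, with a median of 0.09. Over all genes tested, the shares were 9.77% higher and 8.36% lower, then 15% and 14.2%, then 10.6% and 9.69% between the controls. The ubiquitin-like modifier ISG15 was at 1.14 ± 0.17 (SE, adjusted p = 0.00102) and 0.81 ± 0.17 (SE, adjusted p = 0.00412), and the RNA-binding protein IFIT1 at 1.15 ± 0.07 (SE, adjusted p = 2.02e-06) and 0.98 ± 0.07 (SE, adjusted p = 1.96e-06). EPSTI1 was at 1.28 and 2.13 and IFI44L at 2.98 and 1.63, all with an adjusted p below 0.05. CMPK2, a mitochondrial nucleotide kinase, had 1 to 3 counts in parental, 0 to 3 in Ctrl and 26 to 41 in p53 KO libraries, and the antiviral enzyme RSAD2, at 5.40 and 6.21, had the largest fitted change among genes measured in all groups. PARP14 (-0.03 and -0.03) and BST2 (0.12 and -0.14), picked out after their values were seen, passed against neither control. MX1 was at 0.40 (adjusted p = 0.0218) and 0.14 (adjusted p = 0.357). OAS1, which makes the activator of RNase L, was at 1.89 and 0.54, and at 1.35 (adjusted p = 7.4e-05) in Ctrl against parental cells. Over all 153 genes, 45 passed as higher and 6 as lower against parental cells, 47 and 13 against Ctrl cells, and 18 and 16 between the controls.

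**Figure D4:**
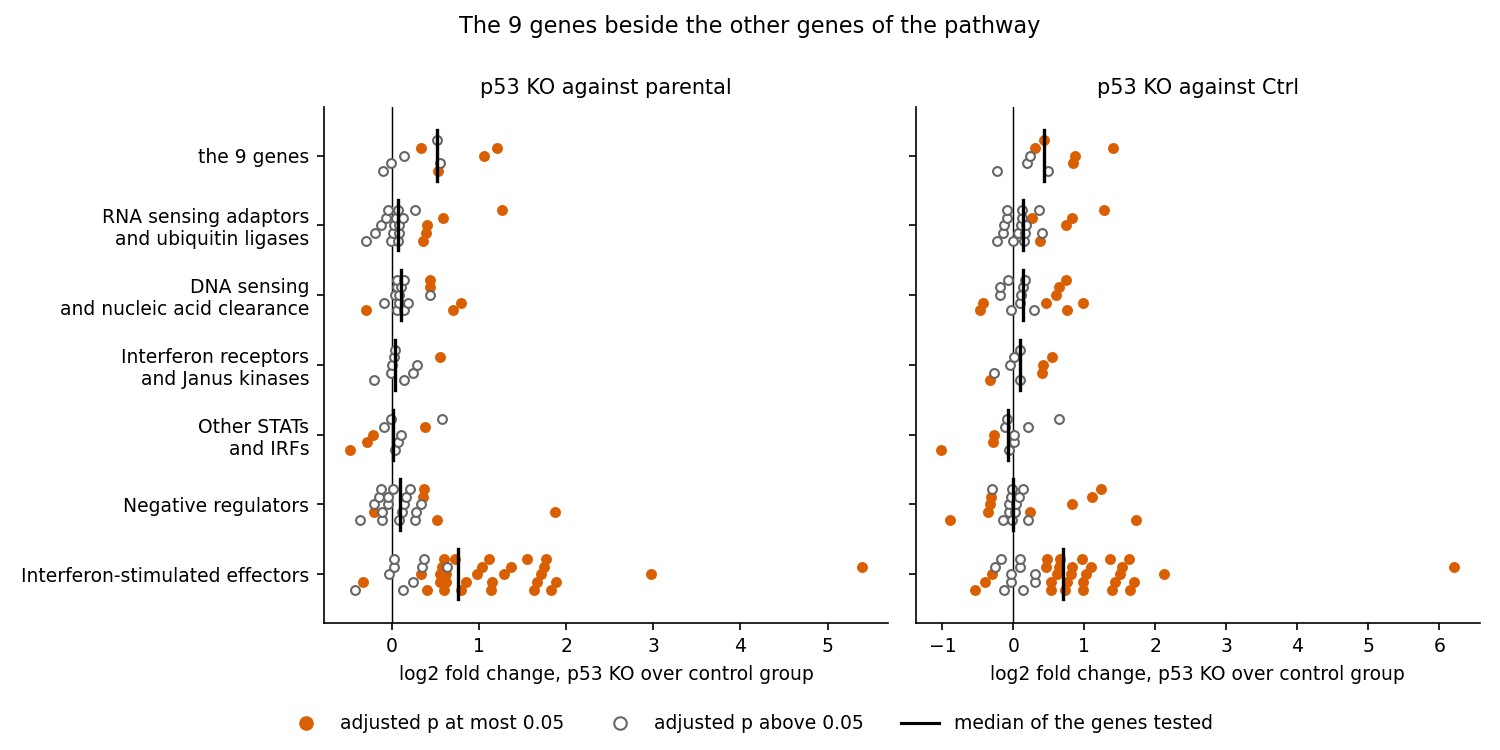
Log2 fold change of p53 KO cells against parental (left) and against Ctrl cells (right) for the 9 genes and 6 lists of pathway genes, with a point per gene, filled where the adjusted p-value was at most 0.05, and a bar at the median of all genes tested in the list. The medians of the 9 genes (0.51 and 0.44) and of the effectors (0.76 and 0.70) lie to the right of those of the other lists, and CMPK2 in both panels and RNF125 on the right enter the medians but are not drawn because a group held 3 or fewer counts in each library.

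The genes whose levels followed DDX58, IFIH1 and DHX58 most closely over the 9 libraries were in none of the lists. DDX58 was most like NT5C2 (Pearson r = 0.995) and OAT (0.994), IFIH1 most like WDR11 (0.996) and VTA1 (0.995), and DHX58 most like FAM160B2 and PRR15 (both 0.989). The closest gene was GULP1 for TLR3 (0.968), ZNF614 for MB21D1 (0.987), STK38 for STAT2 (0.971), PSMC6 for IRF9 (0.860) and MED10 for IRF7 (0.978), and for TMEM173 a long non-coding RNA gene elsewhere on chromosome 5, ENSG00000250564 (0.989), followed by WARS (0.979). Each is the highest of 10548 correlations (10549 for IRF9 and IRF7) across 9 libraries that share 3 group means, and describes these libraries only. Among the members themselves, DDX58 and IFIH1 had an r of 0.975 and DDX58 and STAT2 an r of -0.71. NT5C2, OAT and WDR11 all lie on chromosome 10, away from DDX58 and IFIH1, while VTA1, FAM160B2 and PRR15 lie on chromosomes 6, 8 and 7. The share of chromosome 10 among the genes compared was not examined. Genes that start within 5 Mb of DDX58 had a median log2 fold change of 0.00 against parental and -0.03 against Ctrl cells over 71 genes, and those around IFIH1 -0.17 and 0.03 over 27 genes. Around DHX58 the medians were -0.04 and -0.03 over 171 genes.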

How the data were processed

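RNA of 3 parental, 3 Ctrl and 3 p53 KO libraries of A431 cells was analysed. The authors prepared strand-specific poly(A) libraries, mapped paired-end reads to GRCh38 with STAR 2.5.1b and summed them by gene with featureCounts and the annotation of Ensembl release 85. They deposited whole-number counts without normalization for 58051 genes, of which 30587 had no count. The strand setting of the counting is not given in the sources used here. No column was left out.

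Library totals were 19783778 to 29840452 counts. In R 4.3.3, edgeR 4.0.16 was used with TMM, filterByExpr by group at a minimum count of 10 and the quasi-likelihood test on 1 model of all 9 libraries, with Benjamini-Hochberg adjustment over 14513 genes. Standard errors follow from the F statistic. A gene passed at an adjusted p of at most 0.05, and calls beyond a log2 fold change of 1.5 were counted separately. The code was tested on simulated data. Lengths and overlaps come from GENCODE release 44, in which 14397 tested genes were found, and promoters from RefSeq.

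The 9 genes, the 7 pathway lists and the tests were chosen with earlier results of these data known. Named genes are the 9 members, up to 4 genes per list with the largest change among those that passed with a log2 fold change over 1 in size, a fixed set (MAVS, TBK1, IRF3, IFNAR1, IFNAR2, JAK1, TYK2, IFNB1, IFNL1, ISG15, IFIT1, MX1, OAS1) and the 2 genes most correlated with each member among genes with a mean log2 CPM of at least 2. KRT14, COL1A1, IFNE, IFI16, AIM2, PARP14, BST2, DTX3L, PARP9 and IFI27 were named after their values were seen. TREX1 and ENPP1 were also named outside this rule. A few genes that the rule also covers are not reported here. Alternatives were DESeq2 1.42.0, its size factors in edgeR, upper-quartile normalization, other filters, a block for the replicate number, fits of only the 2 groups in a comparison, and each library left out. Figures were drawn with matplotlib 3.10.9.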

Additional observations from a re-analysis of the deposited data

Results flagged for a closer look

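DDX58 was picked out because its differences from parental cells pointed in opposite directions in the engineered lines. It was at 1.06 in p53 KO cells and at -0.35 in Ctrl cells, each against parental on the log2 scale, and the difference between them was 1.41 ± 0.11 (SE, adjusted p = 6.65e-06) in edgeR's quasi-likelihood test. That difference is the p53 KO against Ctrl comparison itself, and it is measured by 3 libraries of each line. Without Ctrl replicate 1 it was 1.30. DDX58 was picked out by these same values, so the adjusted p gives no separate support. The -0.35 of Ctrl cells passed in 8 of 17 fits. The pattern is not particular to DDX58. In the same order, IFIH1 was at 0.53 and -0.31, MB21D1 at 0.14 and -0.30 and, reversed, STAT2 at -0.10 and 0.13. None of these other genes passed between the controls. Single members were not examined for outlying libraries, since each group held 3.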

How the results depend on the processing

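Of 429 member values recomputed under the alternatives, 384 kept their direction and their side of the threshold, 24 no longer passed, 15 passed in addition, none that passed changed sign, and 6 that did not pass changed sign. DDX58, IFIH1 and DHX58 passed in both p53 KO comparisons, and MB21D1 against Ctrl, in 17 of 17 fits. The members that passed numbered 3 to 5 against parental and 4 to 6 against Ctrl cells, both with a library left out and under the other alternatives. Between the controls, where 1 passed, there were 3 with DESeq2 and 3 without a filter beyond 1 count, 0 with only the 2 groups compared, and 0 to 5 with a library left out, the 5 without Ctrl replicate 3. Among pathway genes, leaving out a library gave 33 to 65 against parental (51 in the fit reported), 49 to 64 against Ctrl (60) and 12 to 46 between the controls (34), and only the 2 groups compared gave 22 between the controls. The lowest counts came without parental replicate 1 (33 and 12) and without p53 KO replicate 1 (33). Over all genes, leaving out a library gave 1554 to 4920 against parental (2631 reported), 3073 to 5123 against Ctrl (4240) and 1391 to 4384 between the controls (2943). The 1554 and 1391 came without parental replicate 1 and the 4920 without Ctrl replicate 1. With only the 2 groups compared, 4852 passed against parental and 1905 between the controls. The cause was not tested, except that fits without a library or a group hold fewer samples.

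The replicate numbers showed no sign of pairing: deviations of same-numbered libraries from their group means correlated at -0.721 to 0.221. No parental library correlated best with its own number in Ctrl or p53 KO cells, and no Ctrl library did so in p53 KO cells. With 3 libraries per group this check is weak, and a shared batch was not tested further. With the replicate block, 3, 4 and 0 members, 39, 54 and 18 pathway genes and 1757, 3406 and 1691 genes of all passed against parental, against Ctrl and between the controls.

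IRF9 and IRF7 had few reads, 5 to 37 per library, and with at least 10 counts required in every library IRF9 was not tested. Whether the bases that IRF9 shares with another gene lowered its count was not tested. Scaling did not decide a direction of a member that passed.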

Other observations

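TREX1, a nuclease that clears cytosolic DNA, and ENPP1, which degrades the product of cGAS, had no count in any of the 9 libraries, which allows up to 0.152 CPM in the smallest library (3 counts, counting error only). Whether TREX1 exons are shared with another counted gene was not examined.

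Within the effector list, 3 of 40 genes passed as lower in p53 KO than in Ctrl cells, where 14.2% of all genes tested did so. DTX3L was at -0.33 (adjusted p = 0.0496) against parental and -0.40 (adjusted p = 0.0147) against Ctrl cells, and PARP9 at 0.02 (adjusted p = 0.889) and -0.30 (adjusted p = 0.0133), with 0.32 (adjusted p = 0.0163) in Ctrl against parental cells, in edgeR's quasi-likelihood test. IFI27 was at -0.43 (adjusted p = 0.0629) against parental and -0.54 (adjusted p = 0.0152) against Ctrl cells. These genes were picked out after their values were seen.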
